A study of Oryza sativa with 6 samples.

Results

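OsPHO1;3, OsSPX1, OsSPX2 and OsSPX4 are 4 rice genes whose proteins carry an SPX domain, the module that plants use to read their phosphate status. They were selected by name: a gene entered if its symbol or a RefSeq synonym was one of these names and a probe set of the array was tied to that gene alone. All 4 were measured, among 17905 genes in all, each through the probe set with the highest mean over the 6 arrays. They were proposed with the contrast of mutant and wild type leaves already known, so their values in that contrast are a description and carry no test.

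The SPX domain binds inositol pyrophosphates, signalling molecules that build up in cells with ample phosphate. In rice, SPX1 and SPX2 then hold the transcription factor PHR2 back from its target promoters in the nucleus, while SPX4 retains it in the cytoplasm and is degraded when phosphate runs short. PHO1 proteins join an SPX domain to a membrane part that exports phosphate from cells, known best for loading the xylem in roots. Leaves use the same machinery to set how much phosphate is kept, stored and moved on to growing organs.

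Total RNA of flag leaves, the leaf just under the panicle, was hybridised to the Affymetrix Rice Genome Array, with 1 array per sample. The wild type group was the japonica cultivar Zhonghua11 (3 arrays), and the mutant group a line of Zhonghua11 with a T-DNA insertion in OsSLAC7 (Os01g0385400, 3 arrays). All plants were untreated, grown in a greenhouse with a day of 14 h at 28°C and a night of 10 h at 20°C, and then moved to the field. The labels give neither plant age, nor the number of insertions or of independent lines, nor whether a replicate was 1 plant or a pool. The SDs thus measure only the spread between these samples. The SEs of differences are limma's moderated ones, in which the variance of each gene is drawn toward a value shared by all genes or probe sets fitted. The transcript of OsSLAC7 itself was not analysed here.

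Array medians over probe sets lay between 4.58 and 4.72 on the log2 scale. Medians over the probe sets that stand for genes separated the groups, at 7.21 to 7.29 in wild type and 7.40 to 7.60 in mutant arrays, and results with these medians set equal are given below. Pearson correlations across probe sets between arrays of 1 group were at least 0.992. Array weights estimated by limma were lowest for mutant replicate 1 (0.567) and highest for wild type replicate 3 (2.242). The main fit did not use them, and they entered only an alternative fit. Over all genes the median difference, mutant minus wild type, was 0.10. Of 10 leaf blade markers, 9 had wild type means from 9.08 (OsGLO4) to 14.30 (the small subunit of Rubisco, OsrbcS), while the probe set of RBCS1 read 2.56. By limma none rose and PSB28 fell by 0.56 (adjusted p = 0.00193), where 21.0% of all genes rose and 6.32% fell. With the gene medians set equal none rose and 4 fell, where 10.1% of all genes rose and 22.0% fell. The summed level of the 10 markers ranged from 16.52 to 16.56 in wild type and from 16.49 to 16.57 in mutant arrays.

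Transcripts of OsPHO1;3, OsSPX1 and OsSPX2 were lower in mutant than in wild type flag leaves, and that of OsSPX4 was higher. OsPHO1;3 had the widest difference of the 4, at 0.513 times its wild type level. The ratios were 0.727 for OsSPX1, 0.780 for OsSPX2 and 1.18 for OsSPX4. The rise of OsSPX4 depended on the processing, and its log2 difference was 0.029 with the gene medians of the arrays set equal. In bulk leaf RNA, fewer cells that express a gene and less transcript per cell cannot be told apart.

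**Figure D1:**
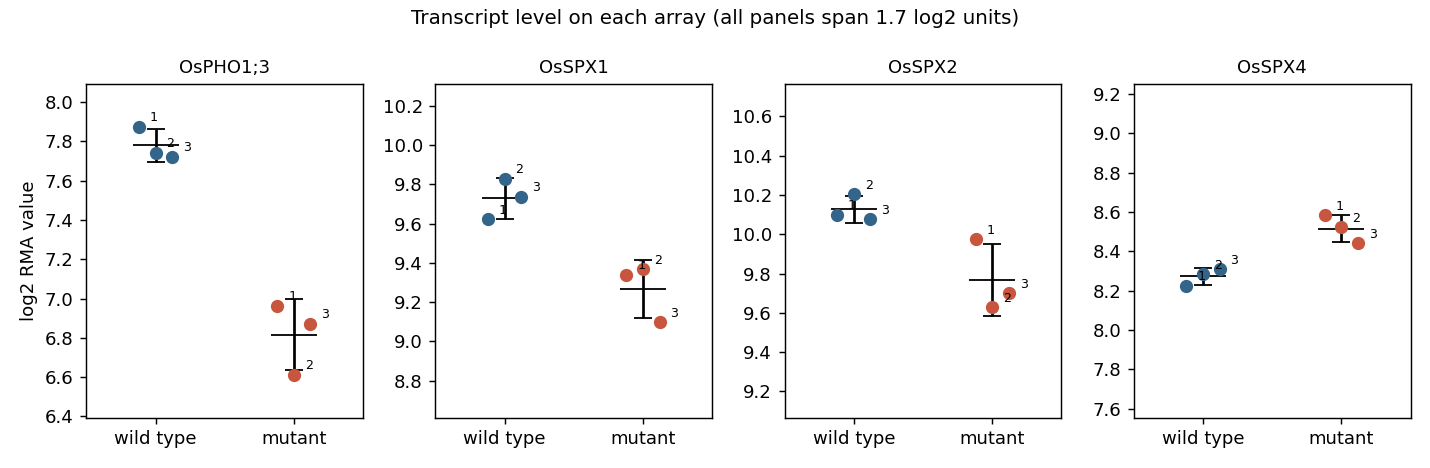
Log2 RMA values (vertical axes, equal spans) of OsPHO1;3, OsSPX1, OsSPX2 and OsSPX4 on the 3 wild type (blue) and 3 mutant arrays (orange), numbered by replicate. The horizontal bar is the group mean and the whiskers are 1 SD; groups do not overlap in any panel, with a gap of 0.76 for OsPHO1;3 and of 0.10 for OsSPX2.

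OsPHO1;3 belongs to the exporter family. Its log2 RMA values were 7.87, 7.74 and 7.72 in wild type replicates 1, 2 and 3, and 6.96, 6.61 and 6.87 in mutant replicates 1, 2 and 3. The lowest wild type array stood 0.76 above the highest mutant array, and mutant replicate 2 was the lowest of all. Group means were 7.78 ± 0.08 in wild type and 6.82 ± 0.18 in mutant leaves (SD, n = 3 each). The difference was -0.96 (SE 0.11), and only 61 of the 17905 genes were lower by more.

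OsSPX1 encodes a nuclear inhibitor of PHR2 that is itself a target of PHR2. It read 9.62, 9.83 and 9.74 in wild type replicates 1 to 3 and 9.34, 9.37 and 9.10 in mutant replicates 1 to 3. All mutant arrays lay below all wild type arrays, by at least 0.25, and mutant replicate 3 was the lowest. The means were 9.73 ± 0.10 and 9.27 ± 0.15 (SD, n = 3 each), a difference of -0.46 (SE 0.10).

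OsSPX2 acts beside OsSPX1 on PHR2 in the nucleus. Its values were 10.10, 10.20 and 10.08 in wild type replicates 1 to 3 and 9.97, 9.63 and 9.70 in mutant replicates 1 to 3. The groups came within 0.10 of each other, because mutant replicate 1 lay close to the wild type arrays and apart from the other mutant arrays. The means were 10.13 ± 0.07 and 9.77 ± 0.18 (SD, n = 3 each), and the difference was -0.36 (SE 0.10). Without mutant replicate 1 the difference was -0.46.

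OsSPX4, the cytoplasmic inhibitor of PHR2, went the other way. It read 8.22, 8.28 and 8.31 in wild type replicates 1 to 3 and 8.58, 8.52 and 8.44 in mutant replicates 1 to 3. The mutant arrays lay above the wild type arrays by at least 0.13. The means were 8.27 ± 0.04 and 8.52 ± 0.07 (SD, n = 3 each), and the difference of 0.24 (SE 0.07) was 0.15 above the median of all genes. Of all genes, 40.2% differed by more in size, against 3.65% for OsPHO1;3, 16.1% for OsSPX1 and 24.5% for OsSPX2.

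**Figure D2:**
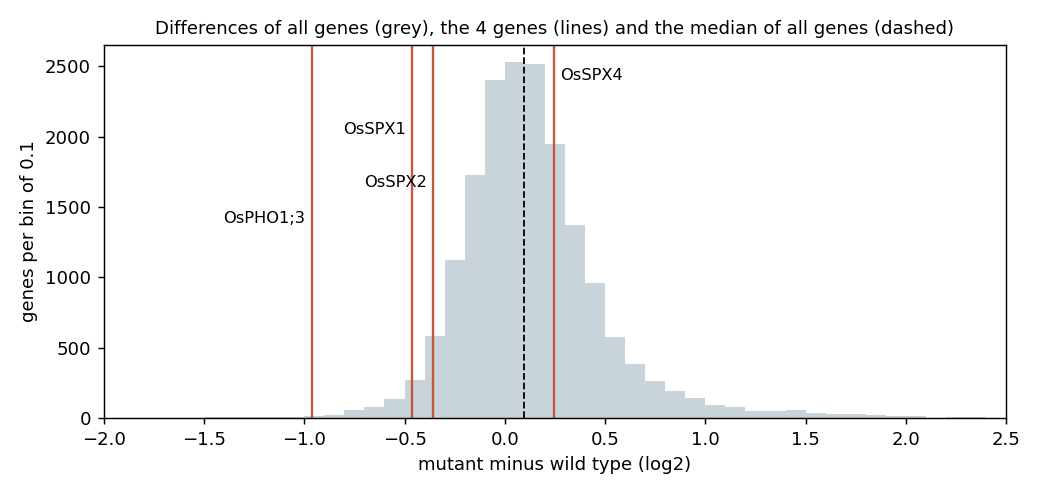
Number of genes (vertical axis) in bins of the difference, mutant minus wild type, on the log2 scale (horizontal axis; genes beyond its ends are not drawn). Orange lines mark the 4 genes and the dashed line the median of all genes at 0.10; OsPHO1;3 lies in the left tail at -0.96, while OsSPX4 at 0.24 lies within the bulk.

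All 4 genes were past the adjusted threshold of 0.05 in the limma fit over all genes, 1 higher and 3 lower, where 27.3% of genes were past it (21.0% higher and 6.32% lower). With the gene medians of the arrays set equal, 10.1% were higher and 22.0% lower. The groups of the 4 genes did not overlap, as held for 45.6% of all genes (32.2% higher and 13.4% lower). These counts follow from how the genes were proposed. The median difference of the 4 was -0.41, against 0.10 for all genes.

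The 4 values did not rest on the processing alike. OsPHO1;3 stayed past the threshold under all 15 alternatives that gave a value for it, with differences from -1.18 to -0.86. OsSPX1 did so under 14 of 16, and missed it when wild type replicate 2 (-0.41) or 3 (-0.46) was omitted. OsSPX2 did so under 8 of 16, and leaving out any array other than mutant replicate 1 took its adjusted p above 0.05. Adjusted over all probe sets instead, 2 of the 4 genes, OsPHO1;3 and OsSPX1, were past the threshold, an alternative added after seeing the data. OsSPX4 kept the threshold under 2 of 16 alternatives and lost it whichever array was left out (0.21 to 0.28). With the gene median of every array set equal, the difference of OsSPX4 was 0.029, while those of OsPHO1;3, OsSPX1 and OsSPX2 were -1.18, -0.68 and -0.57.

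**Figure D3:**
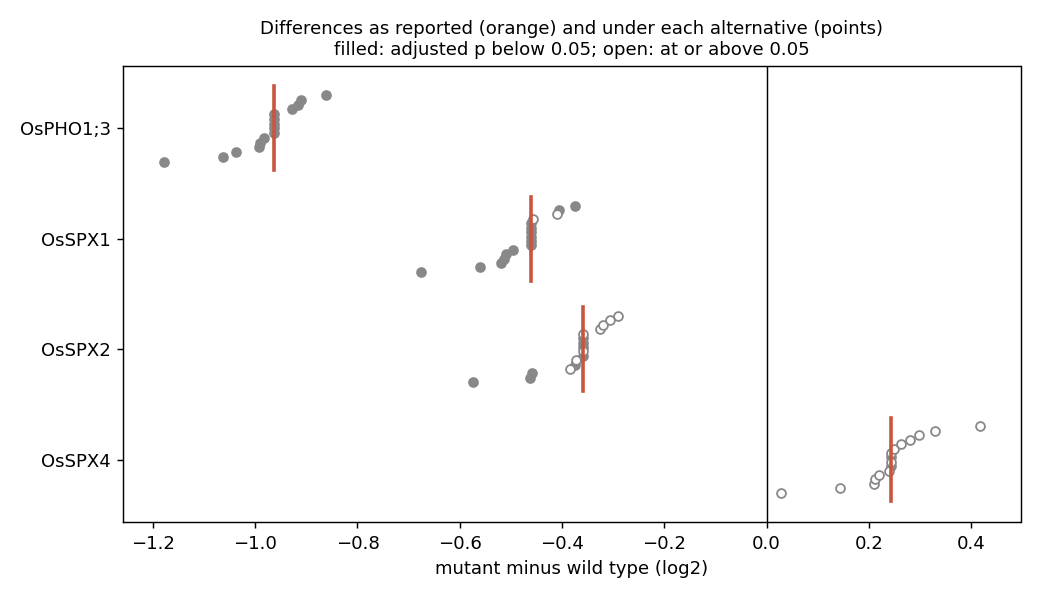
Difference, mutant minus wild type, on the log2 scale (horizontal axis) of each gene as reported (orange line) and under each alternative setting (points, stacked by value; filled where the adjusted p was below 0.05). The points of OsPHO1;3 are all filled and lie between -1.18 and -0.86, and those of OsSPX4 lie between 0.029 and 0.42 with 2 filled.

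The level of OsSPX4 above came from a probe set of the _x_at type, which can bind related transcripts. A dimmer probe set of the gene, without that suffix, read 4.41, 4.51 and 4.41 in wild type replicates 1 to 3 and 5.46, 4.27 and 4.86 in mutant replicates 1 to 3. Here the groups overlapped, since mutant replicate 2 was below all wild type arrays and mutant replicate 1 well above them. The means were 4.45 ± 0.06 and 4.86 ± 0.60 (SD, n = 3 each), a difference of 0.42 (SE 0.25). OsPHO1;3, OsSPX1 and OsSPX2 each had 1 probe set, so their values have no such cross-check.

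Profiles were compared after each gene was centred on its own mean, without scaling, so that the measure holds the size of a difference as well as its shape. The root mean square difference over the 6 arrays was smallest between OsSPX1 and OsSPX2 (0.14) and largest between OsPHO1;3 and OsSPX4 (0.62). By the same measure the closest of 2450 other genes with a name were found for each. Nearest to OsPHO1;3 were the oxophytodienoate reductase gene OsOPR2 (0.09, difference -0.98), the glutaredoxin gene GRXC15 (0.11, difference -1.06) and the peroxidase gene LOC4344277 (0.11, difference -0.99). OsSPX1 was closest to OsADF5, of the actin depolymerising factors (0.04, difference -0.45), OsTIP1, of the tonoplast aquaporins (0.05, difference -0.39), and LPR2 (0.06, difference -0.41).

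OsSPX2 was closest to PRXIIF, of the peroxiredoxins (0.02, difference -0.37), OsCRSH2, of the calcium-activated enzymes that make guanosine tetraphosphate (0.05, difference -0.39), and OST4B (0.05, difference -0.38). For OsSPX4 the nearest were the heat stress factor gene OsHsf-13 (0.02, difference 0.21), the small GTPase gene OsRac3 (0.03, difference 0.26) and the transcription factor gene OsbZIP60 (0.03, difference 0.23). The difference of OsHsf-13 turned to -0.0018 when the gene medians of the arrays were set equal. With 6 arrays many genes come close to any profile, and the ranking is a description.

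Around these 4 genes, 23 other genes of phosphate signalling and transport were measured under the 131 names searched. Many names matched no gene, among them PHO2, PHF1, IPS1, SQD2 and all PAP and GDPD names, so the counts cover part of the pathway. Of the 23 genes 4 rose and none fell by limma over all genes (17.4% past the threshold, against 27.3% of all genes). An unadjusted p under 0.05 was found for 9 of the 23, where 40.5% of all genes had one. With the gene median of every array set equal, 2 rose and 5 fell, where 10.1% of all genes rose and 22.0% fell. These counts lie near or below those shares. The list median was -0.02, against 0.10 for all genes. Of the 4 that rose, 3 were auxin response factors and the fourth was OsPHR3.

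**Figure D4:**
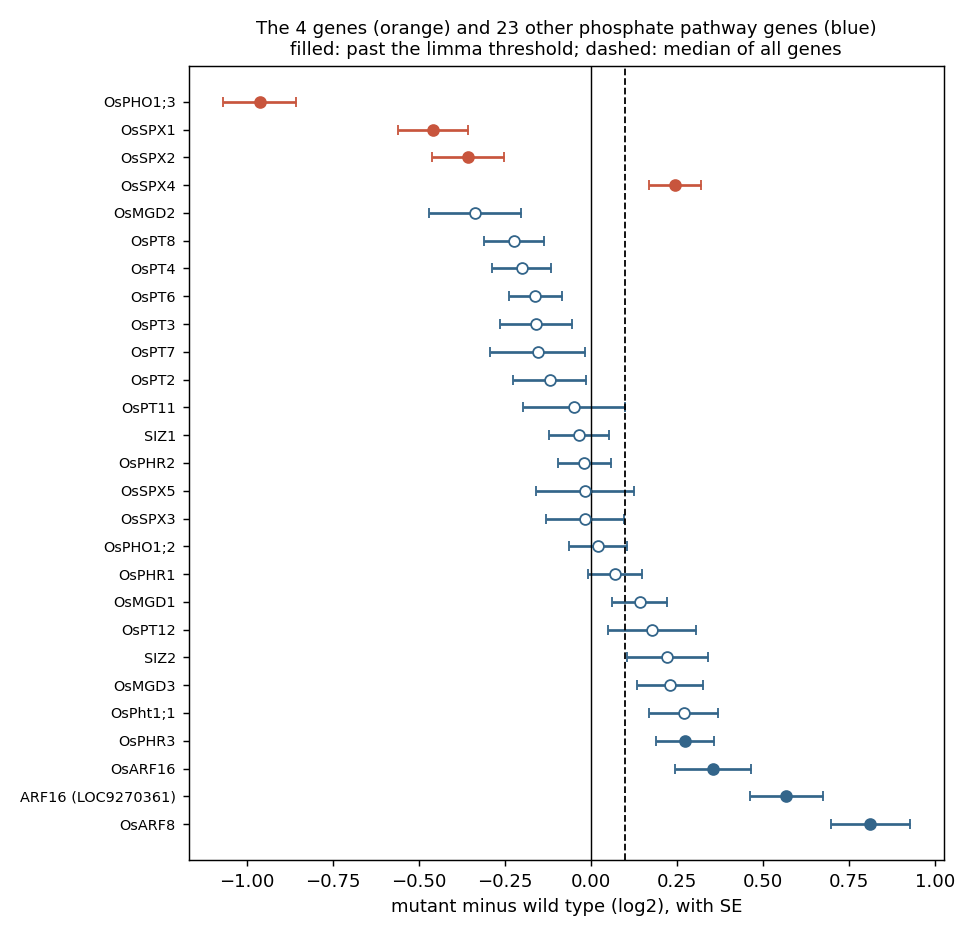
Difference, mutant minus wild type, on the log2 scale with its SE (horizontal axis) for the 4 genes (orange) and the 23 other phosphate pathway genes (blue), 1 row per gene; filled symbols are past the limma threshold, and the dashed line is the median of all genes at 0.10. On the probe sets used, OsPHO1;3, OsSPX1 and OsSPX2 lie left of all 23 other genes. Dimmer probe sets of OsPht1;1 (-1.47) and OsPT3 (-0.54) are not drawn and would lie left of OsSPX1 and OsSPX2.

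The PHR factors switch on the response to phosphate shortage and are the partners that SPX proteins restrain. OsPHR2, the main one in rice, read 9.68, 9.56 and 9.59 in wild type replicates 1 to 3 and 9.65, 9.52 and 9.61 in mutant replicates 1 to 3. These ranges overlapped, and the difference was -0.02 (SE 0.08, limma adjusted p = 0.866). OsPHR1 differed by 0.07 (SE 0.08, limma adjusted p = 0.541). OsPHR3 rose from 8.52 ± 0.12 to 8.80 ± 0.04 (SD, n = 3 each), by 0.27 (SE 0.08, limma adjusted p = 0.0484), a call lost under 9 of 15 alternatives, among them the omission of any array except wild type replicate 1.

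The other SPX and PHO1 genes measured, OsSPX3, OsSPX5 and OsPHO1;2, did not pass. OsSPX6 and OsPHO1;1 had no single-gene probe set and were not read. OsSPX3 and OsSPX5, SPX genes that phosphate shortage is known to induce, were at 3.81 ± 0.02 and 2.84 ± 0.19 in wild type and at 3.79 ± 0.22 and 2.82 ± 0.23 in mutant leaves (SD, n = 3 each). Their limma adjusted p-values were 0.921 and 0.935. Both were dim, with levels at percentiles 12.4 (OsSPX3) and 3.5 (OsSPX5) of all genes, so a change could be missed. The OsSPX5 probe set was of the _x_at type. OsPHO1;2, the rice gene that moves phosphate from root to shoot, differed by 0.02 (SE 0.08, limma adjusted p = 0.883), from 7.21 ± 0.09 to 7.23 ± 0.09 (SD, n = 3 each). This was read on a probe set of the _x_at type, and the gene's dimmer probe sets without that suffix gave -0.06 and -0.32.

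None of the 9 measured PHT1 genes, which encode the phosphate importers of the plasma membrane, passed in the gene-level fit, and 3 had an unadjusted p under 0.05, where 40.5% of all genes did. Their differences ran from -0.22 (OsPT8) to 0.27 (OsPht1;1, also called OsPT1), with 7 below and 2 above 0. Wild type means of OsPT2, OsPT6, OsPT7, OsPT11 and OsPT12 were only 2.82 (OsPT6) to 4.05 (OsPT2). The lowest value of any probe set was 1.65, so signs and missing calls of these dim genes say little. OsPT8 read 9.39, 9.45 and 9.50 in wild type replicates 1 to 3 and 9.29, 9.08 and 9.30 in mutant replicates 1 to 3, without overlap (limma adjusted p = 0.0951). OsPT4 read 8.71, 8.88 and 8.95 in wild type replicates 1 to 3 and 8.64, 8.60 and 8.69 in mutant replicates 1 to 3 (limma adjusted p = 0.122). These values of OsPT8 and OsPT4 came from probe sets of the _x_at type, which can bind related transcripts. So did that of OsPT3 (-0.16). The dimmer probe sets of OsPT3 gave -0.37 and -0.54. Of these only the latter, without that suffix, passed in the fit over all probe sets (limma adjusted p = 0.0295), where 3.31% were called lower.

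OsPht1;1 had probe sets that disagreed. The brighter one, used above, went from 9.73 ± 0.15 to 10.00 ± 0.11 (SD, n = 3 each). The dimmer one read 8.72, 8.74 and 8.61 in wild type replicates 1 to 3 and 7.34, 7.27 and 7.06 in mutant replicates 1 to 3. On it the gene was lower in all mutant arrays, with a difference of -1.47 (SE 0.11, limma adjusted p over all 57258 probe sets = 0.000117). In that fit 9.84% of probe sets were called, 6.52% higher and 3.31% lower. The difference on this probe set was thus wider than that of OsPHO1;3, and opposite in sign to the brighter one. It was singled out after its values were seen.

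**Figure D5:**
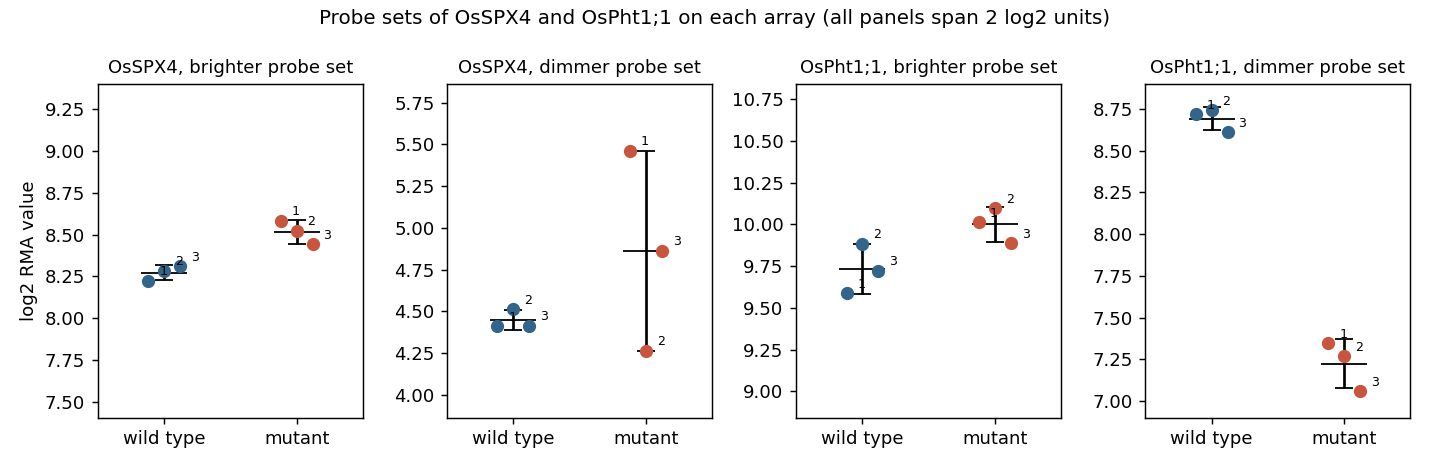
Log2 RMA values (vertical axes, equal spans) on the 3 wild type (blue) and 3 mutant arrays (orange), numbered by replicate, for the brighter and dimmer probe sets of OsSPX4 and OsPht1;1; bars are group means and whiskers 1 SD. The mutant arrays of the dimmer OsSPX4 probe set spread from 4.27 to 5.46, and the dimmer OsPht1;1 probe set differs by -1.47 while the brighter one is higher by 0.27.

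The auxin response factors carry names, ARF12 and ARF16, under which roles in phosphate homeostasis have been described in rice, and RefSeq gives the name ARF16 to more than 1 gene. OsARF8, which also bears the name ARF12, rose by 0.81 (SE 0.11, limma adjusted p = 0.00248), from 7.21 ± 0.14 to 8.02 ± 0.18 (SD, n = 3 each). The gene ARF16 (LOC9270361) rose by 0.57 (SE 0.11, limma adjusted p = 0.00789). OsARF16 rose by 0.35 (SE 0.11, limma adjusted p = 0.0499), a call lost under 9 alternatives.

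Among the remaining genes none passed. The 3 galactolipid synthases of the MGD family, whose lipids can replace phospholipids when phosphate is scarce, differed by 0.14 (OsMGD1), -0.34 (OsMGD2) and 0.23 (OsMGD3). The SUMO ligase genes SIZ1 and SIZ2 differed by -0.03 and 0.22.

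Markers of other tissue and of leaf age were read in the same arrays, against 21.0% of all genes higher and 6.32% lower, or 10.1% and 22.0% with the gene medians set equal. Of 19 panicle and flower organ markers 11 rose and none fell by limma, and with the gene medians set equal 9 rose and 1 fell. Their summed level ranged from 11.49 to 11.62 in wild type and from 11.88 to 11.91 in mutant arrays. OsMADS18, which was matched through the synonym MADS2 that it shares with another marker and did not pass, made up 61.1% to 72.6% of that sum. Without it the sum of the other 18 ranged from 9.76 to 9.87 in wild type and from 10.29 to 10.52 in mutant arrays.

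Of 6 genes of old leaves 3 rose and 1 fell, and the fall was lost with probe-set centring and without any 1 array other than mutant replicate 3. With the gene medians set equal 1 rose and 2 fell. Their summed level ranged from 11.33 to 11.43 in wild type and from 11.58 to 11.67 in mutant arrays. Of 6 root markers 1 rose and 1 fell, or 1 and 4 with the gene medians set equal, counts too small to set against those of all genes. The marker that rose was OsIRT1 (0.95) and the one that fell by limma in the main fit was OsNRT2.2 (-0.55). The summed levels of the 6 overlapped, from 9.62 to 9.80 in wild type and from 9.46 to 9.72 in mutant arrays. Most of each sum was OsNIP2;1, with means of 9.53 in wild type and 9.24 in mutant arrays, so the sums say little of the other markers. The part of these shifts in the values of the 4 genes was not tested.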

How the data were processed

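The authors deposited log2 values per probe set, computed by RMA in affy according to the submitters' processing notes, which name no version. RMA equalises array distributions, so differences in total RNA are removed. The log2 scale was taken from the range of the values, 1.65 to 14.5. Of 57381 probe sets, 123 AFFX controls were left out. The platform annotation tied 22436 probe sets to 1 gene and 95 to several, and 34727 were unnamed. The 17905 genes were named through RefSeq's ASM3414082v1 table, of which 2451 had a symbol other than a LOC number or a clone. Scanner files and sequences were not used here.

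The main contrast was fitted over all genes by lmFit and eBayes of limma 3.58.1 (R 4.3.3) with no block. Two-sided p-values were Benjamini-Hochberg adjusted at a threshold of 0.05, and the procedure was tested on simulated data. The number of arrays, 3 a group, limits the precision. Figures used matplotlib 3.10.9 and tables pandas 2.3.3 in Python 3.11.15.

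The genes and lists were chosen with earlier results of these data known. The pathway list of 131 names matched 38 genes. Left out were 3 of another function under the same abbreviation (VPE1, PI1 and the GRF4 gene under PT2), and 12 had no single-gene probe set. Genes were named in the text by rule: the 4 members, the pathway genes past the threshold, the PHR, SPX and PHO1 genes of the list, and the 3 nearest profiles of each member. Further pathway genes, markers and probe sets were named after their values were seen. Alternatives were a replicate block, 3 scalings, array weights, an intensity trend, a filter on dim genes, 2 other gene summaries, each array left out and, added after seeing the data, a fit over all probe sets. Planned sequence comparisons were not run.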

Additional observations from a re-analysis of the deposited data

How the results depend on the processing

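Centring on genes sets the median of each array over its genes equal. OsPHO1;3 kept its direction and call wherever it was tested; the filter on dim genes gave no value for it. Of the 4 genes, 2 were past the threshold with a replicate block, with arrays centred on the median of probe sets or adjusted over all probe sets, and 1 to 3 with an array left out (1 without wild type replicate 2 or 3). OsSPX1 was -0.51 to -0.37 with an array left out. OsSPX2 missed the threshold at -0.36 with the block or adjusted over all probe sets and at -0.31 with probe-set centring, and ran from -0.46 to -0.29 with an array left out. OsSPX4 missed it at 0.24 with the block or adjusted over all probe sets, 0.30 with probe-set centring, 0.029 with centring on genes, 0.14 with the shift by the median deviation, 0.21 with array weights, 0.33 as the mean of its probe sets and 0.42 without _x_at and _s_at probe sets, and ran from 0.21 to 0.28 with an array left out. The cause was not tested. Same-numbered arrays deviated together with correlations of 0.117, 0.116 and -0.017, so the numbers were not taken to pair samples.

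Over all genes 3752 rose and 1131 fell. Centring on genes gave 1804 rises and 3935 falls and moved the median from 0.10 to -0.12. The shift by the median deviation gave 2167 falls and probe-set centring 641. With an array left out, 2128 to 3639 rose and 572 to 1024 fell.

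In the pathway list 2 rose with the block, with either gene centring or without _x_at and _s_at probe sets, and 2 to 3 with an array left out. Falls numbered 5 with centring on genes, 2 with the shift or as the mean of probe sets, 1 with an intensity trend, among bright genes or without _x_at and _s_at probe sets, and 0 to 1 with an array left out.

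Uncalled differences near 0 turned sign. OsSPX3 was 0.11 without mutant replicate 3 and 0.036 with probe-set centring, and -0.10 to 0.11 over the omissions of an array. OsSPX5 was 0.09 without wild type replicate 2, 0.11 without mutant replicate 2, 0.035 with probe-set centring, 0.083 as the mean of probe sets and 0.19 without _x_at and _s_at probe sets (omissions -0.11 to 0.11). OsPHO1;2 was -0.034 without wild type replicate 2 and -0.029 without mutant replicate 1 (omissions -0.034 to 0.052), -0.20 with centring on genes, -0.080 with the shift, -0.12 as the mean of probe sets and -0.056 without _x_at and _s_at probe sets. OsPHR1 was -0.15 with centring on genes and -0.031 with the shift. OsPHR2 was 0.016 without wild type replicate 1 and 0.015 without mutant replicate 2 (omissions -0.048 to 0.016), 0.034 with probe-set centring and 0.054 as the mean of probe sets. OsHsf-13 was -0.0018 with centring on genes. Under that centring OsSPX3, OsSPX5 and OsPHR2 kept their sign but were each at -0.23. None of these passed (limma adjusted p = 0.111, 0.181 and 0.0684, in that order).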

Other observations

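Several probe sets were available for 8 of the 23 other phosphate pathway genes, and in 6 of these the probe sets differed in sign. The 2 probe sets of OsPht1;1 stood 1.73 apart on the log2 scale in their difference, a distance exceeded by 22 of the 3444 genes with more than 1 probe set. Over those genes, 5 had probe sets called in both directions. For OsPT3 the 3 probe sets were all lower in the mutant, at -0.16, -0.37 and -0.54, and the last of these passed over all probe sets (limma adjusted p = 0.0295). OsPT8 agreed over its 3 probe sets at -0.22, -0.20 and -0.25, none of them past the threshold. For OsPHO1;2 the 3 probe sets gave 0.02, -0.06 and -0.32. The probe sets of OsPHR2 gave -0.02 and 0.13.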
